A study of Mus musculus with 6 samples.

Results

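Wt1, Podxl, Nphs1, Synpo and Ptpro are genes by which podocytes, the filtering epithelial cells of the glomerulus, are commonly recognised. They were chosen by name, and 4 of the 5, all but Nphs1, were measured among the 20033 genes of the deposited table. Nphs1 (nephrin) was not analysed here. RNA sequencing was done on the whole mesonephros of male mice at E12.5, from 3 animals called control and 3 called knockout for Wnt9b, a secreted Wnt ligand of the Wolffian duct. The knockout was global, so no promoter or Cre limits it to a cell type. The genotype label calls the controls heterozygous, whereas the design text calls them wild type; no treatment is given for either group. The study asked how Wnt9b acts on the Wolffian duct and on the androgen response.

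A podocyte sits on the outer face of the glomerular capillary and sends out interlocking foot processes. Neighbouring foot processes are joined by the slit diaphragm, built around nephrin and tied to actin inside the cell, while a negatively charged surface coat, in which podocalyxin is the main protein, helps to keep the processes apart. In the mouse embryo the mesonephros is transient and its glomeruli are rudimentary. Several podocyte genes are also active elsewhere in the urogenital ridge: Wt1 in the coelomic epithelium, mesenchyme and gonadal soma, Podxl in endothelium and coelomic epithelium, and Ptpro and Synpo in neurons. The libraries are bulk tissue, so fewer cells of a type and less RNA per cell cannot be told apart.

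Values are TPM, the share of all transcripts in a library on a fixed scale, which correct for gene length and for the size of the library. At least 27930310 to 32401829 reads per library lay behind them. Wnt9b itself was at 24.9, 26.4 and 34.0 TPM in the controls and 23.4, 19.2 and 19.0 TPM in the knockouts, lower without overlap. Its log2 difference of -0.44 had an adjusted p of 0.266 by limma and 0.136 by limma-voom, while 0.0263 stands in the authors' deposited table. A gene-level value also counts transcripts left by a partial deletion. Knockout 3 stood apart from knockouts 1 and 2: the number of genes of all kinds that passed the test was 78 with all 6 libraries and 243 without it. Nothing in the labels says whether the mice shared litters, so p-values measure the spread between these animals only.

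None of the 4 measured genes differed between knockout and control mesonephroi beyond the spread between embryos. Wt1 and Podxl were among the most abundant transcripts, at means of 229 and 217 TPM in the controls and 236 and 216 TPM in the knockouts (n = 3 each). Synpo was at 13.4 against 15.6 TPM and Ptpro at 1.35 against 1.66 TPM. Of the 4, 0 passed limma's test on log2(TPM + 1) at an adjusted p under 0.05 over 17577 genes, and 0 reached an unadjusted p under 0.05. Over all genes tested, 0.444% passed, 0.131% higher and 0.313% lower in the knockouts, so a count of 0 in 4 is no departure from that background. Limma-voom on reads recovered from the TPM values called 0 of them and the authors' deposited table marks 0. Each of those 2 analyses gave 1 of the 4, Synpo, an unadjusted p under 0.05.

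Wt1 (ENSMUSG00000016458) encodes a zinc finger transcription factor that is needed for the kidney and gonad to form and is kept on in podocytes. It was measured at 211, 238.5 and 237 TPM in the controls 1 to 3 and at 239, 231.5 and 237 TPM in the knockouts 1 to 3. Control 1 was the lowest library, the other 5 lay within a narrow band, and the groups overlapped. The log2 difference was 0.045 (SE 0.065; limma adjusted p = 0.851), with a 95% interval from -0.10 to 0.19, or a ratio between 0.931 and 1.14. Without control 1 the difference was -0.012. The neighbouring antisense gene Wt1os was at 67.0, 77.6 and 76.6 TPM in the controls and 59.4, 64.7 and 75.1 TPM in the knockouts (log2 difference -0.15; limma adjusted p = 0.641). Whether reads were counted by strand is not given in the sources used here, so reads of Wt1 and Wt1os may not have been told apart. Wt1os stood at 0.249 to 0.325 times the level of Wt1 in TPM.

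Podxl (ENSMUSG00000025608) encodes podocalyxin, the sialomucin of the podocyte surface. It was at 189.6, 215 and 245 TPM in the controls and at 206, 188.5 and 254 TPM in the knockouts. Control 3 and knockout 3 were the highest libraries, and the range within each group (55.5 TPM in the controls, 65.3 TPM in the knockouts) was far wider than the gap between the means. The log2 difference was -0.0066 (SE 0.13; limma adjusted p = 0.990), with a 95% interval from -0.30 to 0.28, or a ratio of 0.814 to 1.22. Its sign turned under median-of-ratios scaling, to 0.0023, and the authors' deposited table has 0.0060. Podxl varied more between embryos of a group than most genes of like abundance: its pooled SD on the log2 scale was 0.202, where 644 genes within 1.5-fold of its level had a median of 0.0922. Of those genes, 93.6% had a smaller SD. Wt1 had an SD of 0.0715 against a median of 0.0918 for 593 genes of like level. Counting error is small at this depth: the 8686 reads of Podxl in knockout 2 give an exact Poisson 95% interval of 185 to 193 TPM, and the 11668 reads in knockout 3 one of 249 to 258 TPM.

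Synpo (ENSMUSG00000043079) encodes synaptopodin, an actin-associated protein of foot processes and of dendritic spines. It was at 11.6, 14.1 and 14.7 TPM in the controls and at 15.8, 15.5 and 15.5 TPM in the knockouts. Every knockout value lay above every control value, and the knockouts were closely grouped. Of all genes tested, 8.14% had groups that did not overlap with the knockouts higher, so 1 such gene in 4 is not a result about the set. In log2 the difference was 0.21 with an SE of 0.12 and a 95% interval from -0.060 to 0.48 (limma adjusted p = 0.575). Without control 1, the lowest library, it was 0.11. Limma-voom on the recovered reads gave an unadjusted p of 0.0222 and an adjusted p of 0.294, and the authors' deposited table has 0.23 as its log2 fold change, with p = 0.0300 and adjusted p = 0.317.

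Ptpro (ENSMUSG00000030223) encodes a receptor tyrosine phosphatase of the podocyte's apical membrane, also known as GLEPP1. Its values were 1.65, 1.21 and 1.19 TPM in the controls and 2.30, 1.84 and 0.852 TPM in the knockouts. Knockout 1 was the highest and knockout 3 the lowest of the 6 libraries, and knockout 3 was the 1 library under 1 TPM. The log2(TPM + 1) difference was 0.15 (SE 0.26; limma adjusted p = 0.886), with a 95% interval from -0.46 to 0.75, the widest of the 4. It was -0.027 without knockout 1 and 0.39 without knockout 3. The spread among the knockouts was larger than counting error, since the exact Poisson 95% intervals were 1.93 to 2.71 TPM for the 142 reads of knockout 1 and 0.628 to 1.13 TPM for the 48 reads of knockout 3; these intervals cover counting error only. Summed over 8 neuronal marker genes, TPM was highest in knockout 1 (113) and lower in knockouts 2 (63.4) and 3 (47.55), with controls between 44.5 and 56.1. Germ cell markers followed the same order among the knockouts, at 66.2, 52.5 and 36.0 TPM summed over 8 genes, and ran from 31.3 to 57.4 TPM in the controls. The part of these cells in the Ptpro values was not tested.

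**Figure D1:**
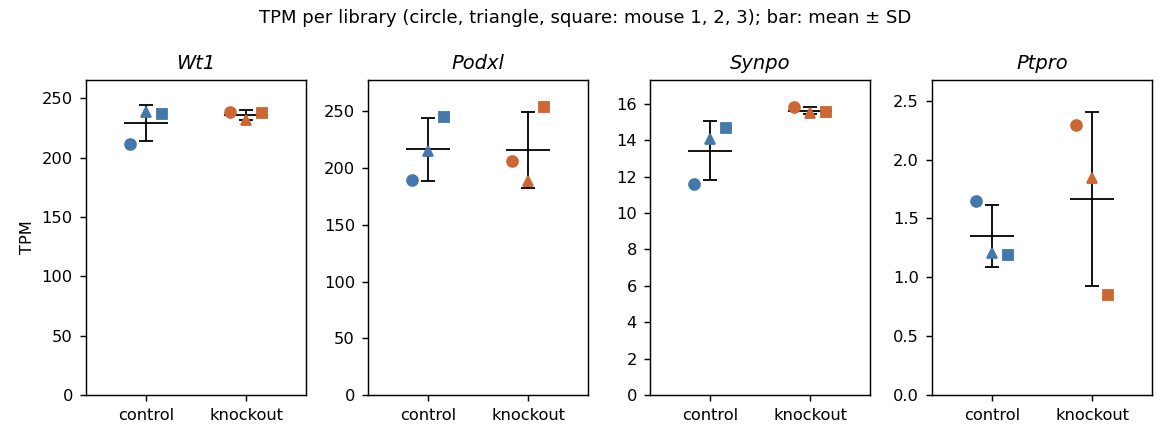
TPM of Wt1, Podxl, Synpo and Ptpro in each library (vertical axes in TPM, each from 0), with controls in blue and knockouts in orange; symbols mark mouse 1, 2 and 3, and bars the mean ± SD of 3 libraries. The groups overlap for every gene but Synpo, where the knockouts lie between 15.5 and 15.8 TPM and the highest control at 14.7 TPM.

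On the TPM scale, which allows levels of different genes to be set side by side, Wt1 and Podxl stood together at the top. Podxl exceeded Wt1 in 2 of the 6 libraries, with a ratio of Podxl to Wt1 from 0.814 to 1.07, so the order of this pair was not fixed. Synpo came next: Wt1 was 14.9 to 18.2 times as abundant. Ptpro was lower again, with Synpo at 6.90 to 18.2 times its level in the same library. Of all genes tested, 96.9% had a lower TPM than Wt1, 96.5% than Podxl, 47.0% than Synpo and 7.11% than Ptpro.

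The deposited values were then compared with the name of the gene set. Among 61 further genes of the podocyte and its surroundings, 4 known from mature podocytes or the mature glomerular basement membrane never reached 1 TPM in any library and were not tested: Kirrel2, a relative of nephrin (at most 0.606 TPM), the chloride channel family gene Clic5 (at most 0.744 TPM), the transcription factor gene Lmx1b (at most 0.528 TPM) and the collagen gene Col4a3 (at most 0.838 TPM). These 4 were picked for their low values. Other genes known from podocytes were well above 1 TPM. Among them were Kirrel1 (mean of 78.5 TPM over 6 libraries), Cd2ap (32.3 TPM), Trpc6 (9.90 TPM), Plce1 (9.11 TPM) and Tcf21 (243 TPM). Tcf21 is also a factor of kidney and gonadal mesenchyme, and which cells of the bulk tissue carried these genes was not tested. Their levels therefore gave no answer on podocytes. The values are described as those of the named genes.

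**Figure D2:**
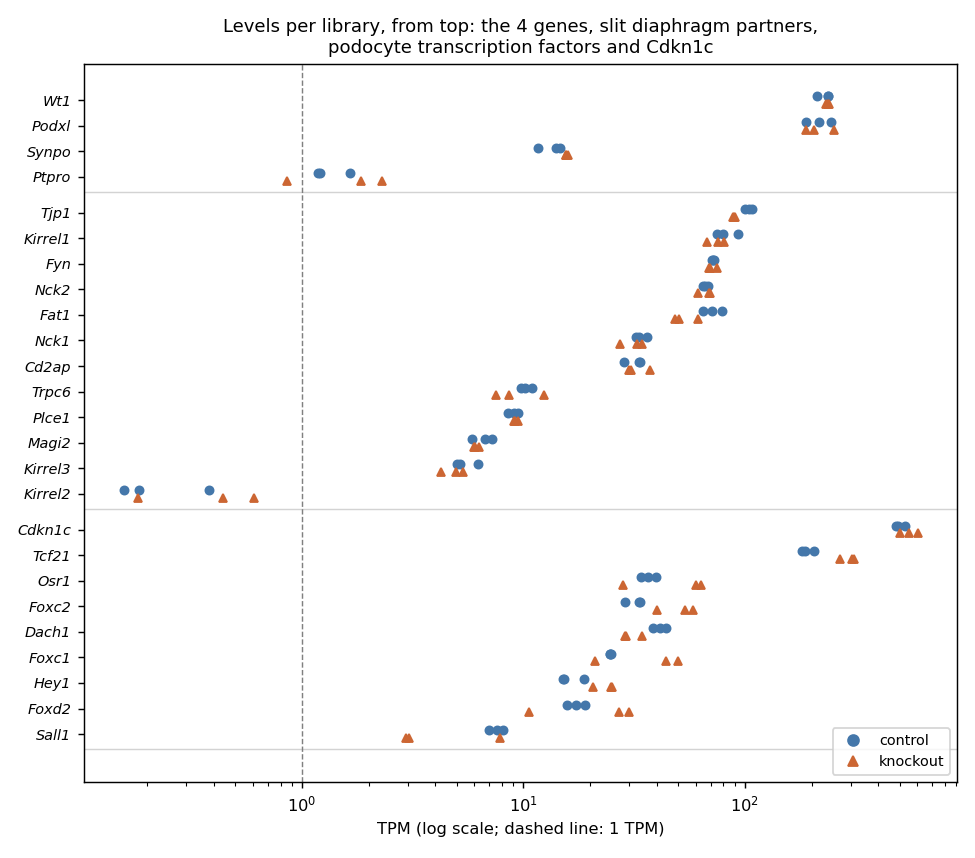
TPM per library on a log axis for Wt1, Podxl, Synpo and Ptpro (top block), slit diaphragm partners (middle) and podocyte transcription factors with the cell cycle inhibitor gene Cdkn1c (bottom), controls as blue circles and knockouts as orange triangles. Kirrel2 lies to the left of the dashed line at 1 TPM in all 6 libraries; Lmx1b, at 0 in 1 library, is not drawn.

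The remaining parts of the podocyte were followed with 5 lists of those 61 genes: partners of nephrin at the slit diaphragm, surface and cytoskeletal proteins, transcription factors, glomerular basement membrane, and secreted signals. Of these, 57 passed the filter on low values and 4 did not. Only Tcf21 passed the test, and it was higher in the knockouts; 56 did not pass and 0 were lower and past it. The median log2 difference of the 57 was -0.092, against -0.0075 over all genes tested. At an unadjusted p under 0.05 there were 18 of the 57, where 11.3% of all genes reached it. The authors' deposited table marks 10 of the 61 at an adjusted p under 0.05, against 3.55% of its genes with an adjusted p, while limma-voom called 4 of the 57, against 1.62%. By summed TPM the slit diaphragm list was lower in the knockouts without overlap (473 to 514 against 435 to 462). The transcription factor list was higher without overlap (843 to 892 against 921 to 1166). Sums are weighted towards abundant genes and do not show a shift of a whole list. Of 11 tested slit diaphragm genes, 2 were lower without overlap, Tjp1 and Fat1. The most abundant genes of the transcription factor list were the cell cycle inhibitor gene Cdkn1c (482 to 604 TPM, overlapping) and Tcf21. The sums of the surface, matrix and secreted lists overlapped.

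At the slit diaphragm, 0 of 11 tested genes passed limma (2 at an unadjusted p under 0.05; 1 by limma-voom; 1 in the authors' deposited table), and the median log2 difference was -0.11. Tjp1, the tight junction scaffold ZO-1, had means of 104 ± 3.39 TPM in the controls and 89.3 ± 1.00 TPM in the knockouts (SD, n = 3) (difference of -0.22 in log2; limma adjusted p = 0.200). Kirrel1, whose product Neph1 binds nephrin, averaged 82.5 ± 9.39 and 74.6 ± 6.79 TPM (log2 difference -0.14; limma adjusted p = 0.670). Cd2ap, an adaptor of nephrin, was at 31.9 and 32.7 TPM. For Tjp1 and for Fat1, a giant cadherin, the groups did not overlap, with the knockouts lower, as for 8.49% of all genes tested. Fat1 was at 64.8, 71.3 and 78.5 TPM in the controls and 61.7, 48.5 and 50.2 TPM in the knockouts. Its log2 difference of -0.42 had a limma adjusted p of 0.192 and a limma-voom adjusted p of 0.0497, while 0.00176 stands in the authors' deposited table.

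Among surface and cytoskeletal genes, 0 of 13 tested passed limma (4 at an unadjusted p under 0.05; 0 by limma-voom; 2 in the authors' deposited table), with a median log2 difference of -0.062. Podocalyxin is held to actin by ezrin and the NHERF adaptors. Ezr was at 109, 107 and 106 TPM in the controls and 114, 113 and 124 TPM in the knockouts. Nherf1 was at 116, 111 and 113 TPM against 128, 118 and 131 TPM, and Nherf2 averaged 120.4 and 113 TPM. The knockouts of Ezr and Nherf1 lay above the controls without overlap, but their log2 differences of 0.12 and 0.15 did not pass the test (limma adjusted p = 0.553 and 0.437). The actin-binding gene Actn4, mutated in a familial glomerular disease, and Arhgdia, which holds small GTPases inactive, differed by -0.071 and 0.074 in log2 (limma adjusted p = 0.776 and 0.735). In the other direction, Nes, which encodes the intermediate filament protein nestin, and Myo1e, a class I myosin gene, were lower without overlap, at means of 103 against 86.7 TPM and 28.9 against 24.2 TPM (limma adjusted p = 0.273 and 0.405). Synpo2, a relative of Synpo best known from muscle, was at 1.45, 1.35 and 1.75 TPM in the controls and 3.94, 2.77 and 2.06 TPM in the knockouts. Limma gave it an adjusted p of 0.358, and the authors' deposited table has 0.96 as its log2 fold change and 0.00273 as its adjusted p. The other gene that the authors' deposited table marks in this list is lower, Thsd7a, with -0.65 and 0.0441, where limma gave an adjusted p of 0.492 and the groups overlapped.

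The list of transcription factors, which also holds the cell cycle inhibitor gene Cdkn1c, showed the widest differences of the 5 lists. Its log2 differences ran from -0.72 to 0.645 over 9 tested genes, of which 1 passed and 8 did not. The median of 0.37 was the value of Osr1, for which the knockouts did not go together. Tcf21, a basic helix-loop-helix factor of podocytes and of kidney and gonadal mesenchyme, was at 186, 205 and 182 TPM in the controls and 312, 306 and 268 TPM in the knockouts. All 3 knockouts lay above all 3 controls. Tcf21 rose by 0.62 ± 0.079 (SE) on the log2 scale (limma adjusted p = 0.0197). Its adjusted p was between 0.0774 and 0.112 when control 1, 2 or 3 or knockout 1 or 2 was left out.

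The forkhead genes Foxc1 and Foxc2 and the mesenchymal factor gene Osr1 all act early in the nephric lineage. Foxc1 and Osr1 split the knockouts. Foxc1 was at 24.8, 24.7 and 24.6 TPM in the controls and 44.0, 49.9 and 21.1 TPM in the knockouts. Osr1 was at 34.0, 36.6 and 39.8 TPM against 63.6, 60.4 and 28.1 TPM. In both, knockouts 1 and 2 were above every control and knockout 3 below every control. Foxc2 was at 33.2, 28.6 and 33.8 TPM in the controls and 53.9, 58.5 and 40.2 TPM in the knockouts, with no overlap. None of the 3 passed limma with all libraries (adjusted p = 0.541, 0.123 and 0.679 for Foxc1, Foxc2 and Osr1). Without knockout 3, the list had 5 genes past the test in place of 1, all higher: Tcf21, Foxc1, Foxc2, Foxd2 and Osr1. In that setting 243 of all 17577 genes tested passed, against 78 with all libraries. For Foxd2 too, knockout 3 was below every control (10.6 TPM, lowest control 15.7 TPM). The calls of Foxc1, Osr1 and Foxd2 thus rest on knockouts 1 and 2 and leave out the library that went the other way. Sall1, a zinc finger gene of nephron progenitors, had the largest difference of the list, -0.72, at 8.12, 7.63 and 7.01 TPM in the controls and 7.83, 3.05 and 2.95 TPM in the knockouts. Knockout 1 lay among the controls, and the limma adjusted p was 0.423. Dach1, a corepressor of podocytes, was at 38.4, 41.3 and 43.9 TPM in the controls and 34.4, 28.8 and 29.0 TPM in the knockouts (log2 difference -0.42; limma adjusted p = 0.146; limma-voom adjusted p = 0.0394). The authors' deposited table marks 4 genes of this list, Tcf21, Foxc2 and the Notch target gene Hey1 as higher and Dach1 as lower.

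The glomerular basement membrane changes its make-up as it matures, from collagen IV chains alpha-1 and alpha-2 to chains alpha-3 to alpha-5, and from laminin alpha-1 and beta-1 to alpha-5 and beta-2. Col4a1 averaged 244 TPM in the controls and 232 TPM in the knockouts, whereas Col4a3 averaged 0.740 and 0.737 TPM and Col4a4 1.54 and 2.16 TPM. Col4a5 was at 151 and 133 TPM. Both early and late laminin chains were present in controls, at 59.6 TPM for Lama1, 72.2 TPM for Lama5, 183 TPM for Lamb1 and 92.4 TPM for Lamb2. These matrix genes are also made by vessels and by duct and tubule epithelium, and their source in bulk tissue was not tested.

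Of the 16 tested genes of this matrix list, 0 passed limma (5 at an unadjusted p under 0.05, all lower; 1 by limma-voom; 3 in the authors' deposited table), and the median log2 difference was -0.16. Itgb1, the integrin chain that anchors podocytes, and Col4a1 differed by -0.14 and -0.071 in log2 (limma adjusted p = 0.663 and 0.728). Npnt, which encodes the integrin ligand nephronectin, came nearest, at 82.5, 82.9 and 89.6 TPM in the controls and 62.1, 59.0 and 69.1 TPM in the knockouts. Its groups did not overlap. The log2 difference was -0.42 (SE 0.079; limma adjusted p = 0.0811), the adjusted p was 0.0295 without knockout 3, while 6.86e-05 stands in the authors' deposited table. Lama1 and Lamc1 were the other two that table marks, with adjusted p of 0.0132 and 0.0403, where limma gave 0.273 and 0.376.

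Of 8 tested secreted signals, 0 passed limma (2 at an unadjusted p under 0.05; 0 by limma-voom; 0 in the authors' deposited table), and the median log2 difference was -0.039. Vegfa, by which podocytes maintain the glomerular endothelium, was at 172, 189 and 175 TPM in the controls and 182, 183 and 175 TPM in the knockouts. Its log2 difference of 0.015 had a 95% interval from -0.12 to 0.15 (limma adjusted p = 0.951). Efnb2, a membrane-bound ligand of Eph receptors, had a log2 difference of -0.15 (limma adjusted p = 0.626).

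**Figure D3:**
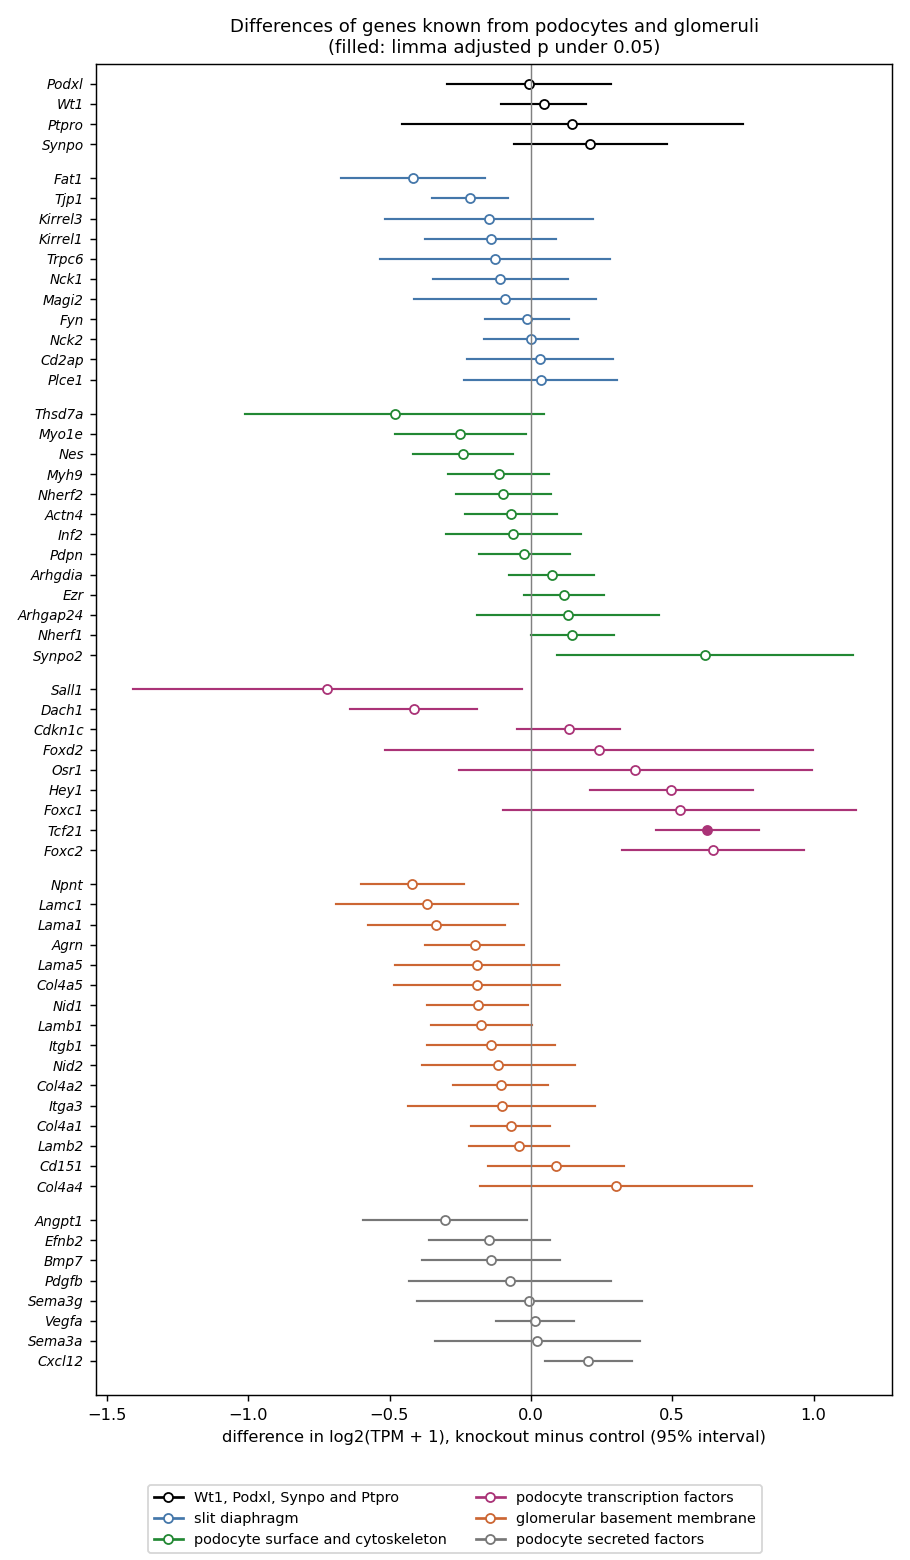
Difference in log2(TPM + 1), knockout minus control, with 95% intervals (horizontal axis), for the 4 genes in black and for the 57 tested genes of the 5 podocyte lists in colour; filled points passed limma at an adjusted p under 0.05. The only filled point is Tcf21 at 0.62; the intervals of Wt1, Podxl, Synpo and Ptpro all include 0.

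Markers of other cells that express the same genes did not all hold level. Among gonadal soma genes, where Wt1 is also active, 3 of 11 tested passed and 8 did not. Over all genes tested, 0.444% passed. At an unadjusted p under 0.05 there were 7 of the 11, 6 higher and 1 lower, where 11.3% of all genes reached it. Limma-voom called 3 and the authors' deposited table marks 4, against 1.62% and 3.55% of all genes with an adjusted p. Those 3, Nr5a1, Gata4 and Lhx9, rose by 1.62, 1.82 and 1.53 on the log2 scale (limma adjusted p = 0.0281, 0.0354 and 0.0463). Each of the 3 calls was lost when control 2 or 3 or knockout 1 or 2 was left out, and that of Lhx9 also without control 1 or knockout 3 (adjusted p between 0.0569 and 0.184). Not all genes of the list rose. Amhr2 averaged 77.9 TPM in the controls and 55.9 TPM in the knockouts, with overlap (log2 difference -0.48, limma adjusted p = 0.348). Cbx2, Sox9 and Fgf9 differed by -0.084, -0.059 and -0.040. The summed TPM of the 12 gonadal genes was 250.5 to 292 in controls and 300.1 to 388 in knockouts. That sum includes Nr5a1, Gata4 and Lhx9, so it is not separate from their calls. Wt1 stayed within 211 to 239 TPM across the same libraries. Of 9 coelomic epithelium genes, 0 passed limma (3 at an unadjusted p under 0.05; 0 by limma-voom; 2 in the authors' deposited table), and their sum was 871 to 902 TPM in the controls and 789.8 to 836.5 TPM in the knockouts. The most abundant genes of that sum were Krt18 and Krt8, both lower without overlap. Upk3b went the other way without overlap, at means of 81.0 TPM in the controls and 88.5 TPM in the knockouts. Krt18 and Krt8 differed by -0.29 and -0.25 in log2 (limma adjusted p = 0.119 and 0.193), and Krt19, another keratin gene of this list, by 0.40 in the other direction (limma adjusted p = 0.233). Krt19 averaged 98.4 TPM in the controls and 129.9 TPM in the knockouts without overlap, and the authors' deposited table has 0.0348 as its adjusted p.

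Endothelial markers, relevant to Podxl and to the glomerular capillary, summed to 613 to 641 TPM in the controls and 538 to 582 TPM in the knockouts, without overlap, while Podxl overlapped. Of 12 endothelial genes, 0 passed limma (3 at an unadjusted p under 0.05; 1 by limma-voom; 2 in the authors' deposited table), and Plvap and Cdh5 had log2 differences of -0.048 and -0.28. Germ cell markers, of which 0 of 8 passed limma (1 at an unadjusted p under 0.05; 0 by limma-voom; 0 in the authors' deposited table), had log2 differences of -0.10 for Kit and 1.14 for Dppa3. For neurons, 0 of 7 tested passed (1 at an unadjusted p under 0.05; 0 by limma-voom; 1 in the authors' deposited table), with 0.062 for Stmn2 and 0.94 for Tubb3. All 7 log2 differences were above 0, from 0.062 to 1.29 with a median of 0.89. Th, which the authors' deposited table marks, was at 0.609, 0.307 and 0.211 TPM in the controls and 3.86, 2.47 and 1.21 TPM in the knockouts. It met the filter on low values through its knockouts alone. Neither the value of Tubb3 nor that of Dppa3 held when 1 library was left out: Tubb3 was 0.28 without knockout 1 and 1.68 without knockout 3, and Dppa3 was 0.57, 0.75 and 0.66 without control 2, control 3 and knockout 1 and 2.11 without control 1. Of 8 tested macrophage genes, 0 passed (0 at an unadjusted p under 0.05; 0 by limma-voom; 0 in the authors' deposited table), with -0.26 for C1qb and -0.18 for C1qa; Ptprc, the pan-leukocyte gene, was under 1 TPM in all libraries, and the list summed to 131.5 to 198 TPM in the controls and 131 to 159 TPM in the knockouts. No gene of these 6 lists was at 0 in all libraries, and the part of these cells in the values of Wt1, Podxl, Synpo and Ptpro was not tested.

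Among genes known from the structures around the glomerulus, Pdgfrb, the receptor of mesangial cells and pericytes, was lower in the knockouts. It was at 229 ± 15.7 TPM in the controls and 151 ± 5.14 TPM in the knockouts (limma adjusted p = 0.0137). Pdgfrb was the 1 of 9 genes of its list to pass limma, against 0.444% of all genes tested. In this list 4 had an unadjusted p under 0.05, limma-voom called 2 and the authors' deposited table marks 3. Over all genes these shares were 11.3%, 1.62% and 3.55%. In the same list Foxd1, a stromal factor gene, and Des, which encodes desmin, were higher without overlap, at means of 24.2 against 38.0 TPM and 21.8 against 29.4 TPM (limma adjusted p = 0.0582 and 0.146). Foxd1 passed limma-voom (0.00839 after adjustment). In the authors' deposited table the adjusted p is 1.61e-06 for Foxd1 and 0.0107 for Des. The list, Pdgfrb included, summed to 695 to 788 TPM in the controls and 606 to 674 TPM in the knockouts. The limma call of Pdgfrb was lost without control 2 or 3 or knockout 1 or 2 (adjusted p between 0.0602 and 0.108). Among tubule epithelium genes, 3 of 13 tested passed, Lhx1, Jag1 and Irx1, all lower, as were 0.313% of all genes tested. Their log2 differences were -1.32, -0.57 and -1.37 (limma adjusted p = 0.0123, 0.0325 and 0.0454). Each lost its call when control 1, 2 or 3 or knockout 2 was left out, and Jag1 and Irx1 also without knockout 1 (adjusted p between 0.0525 and 0.194). Irx1 was at 3.2, 2.5 and 3.1 TPM in the controls and 0.41, 0.36 and 0.82 TPM in the knockouts. It thus met the filter on low values through its controls alone. With a pseudocount of 0.1 its log2 difference was -2.33 (limma adjusted p = 0.0661). The tubule list summed to 501 to 516 TPM in the controls and 406 to 447 TPM in the knockouts, whereas Wt1, Podxl, Synpo and Ptpro together summed to 414 to 498 TPM and 437 to 507.5 TPM. The difference between those lists was not tested. Which cells of the bulk tissue carried the changes in Pdgfrb, Lhx1, Jag1 and Irx1 was not tested either.

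**Figure D4:**
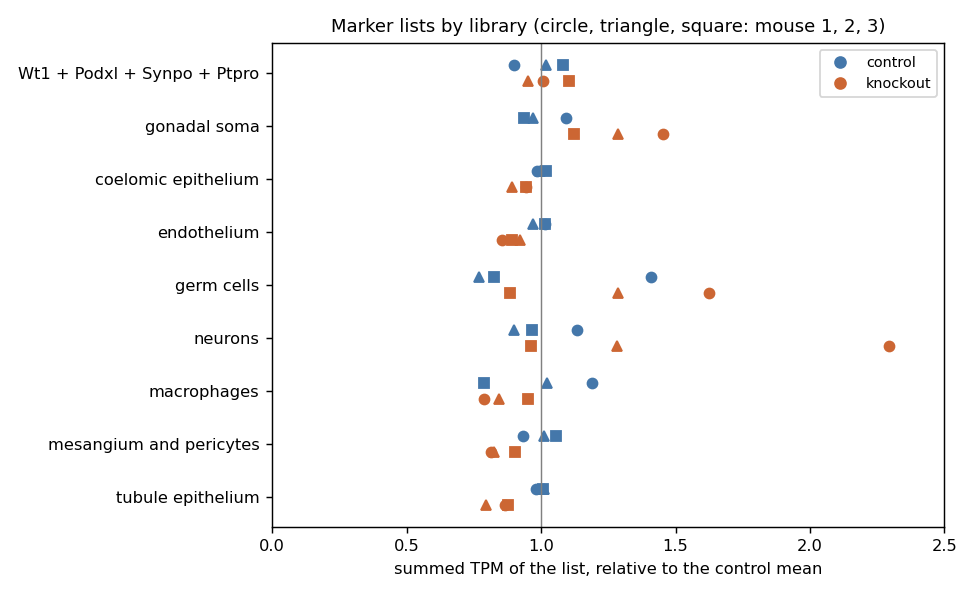
Summed TPM of each marker list in each library, divided by the mean of the 3 controls (horizontal axis, from 0), controls in blue and knockouts in orange, with symbols for mouse 1, 2 and 3. The sum of Wt1, Podxl, Synpo and Ptpro overlaps between groups. The tubule, mesangial, coelomic and endothelial sums lie lower in the knockouts and the gonadal sum higher, each without overlap. In the coelomic sum the most abundant genes, Krt18 and Krt8, were lower, while Krt19 and Upk3b were higher. The gonadal sum includes Nr5a1, Gata4 and Lhx9, the mesangial sum Pdgfrb, and the tubule sum Lhx1, Jag1 and Irx1, all of which passed the test. Sums are weighted towards abundant genes and do not show a shift of a whole list. Single genes without overlap were 2 higher and 1 lower of 9 mesangial genes, and 2 higher and 2 lower of 9 coelomic genes. They were 5 higher of 11 gonadal, 6 lower of 13 tubule and 4 lower of 12 endothelial genes tested. Over all genes tested, 8.14% were higher and 8.49% lower without overlap. Knockout 1 has the highest neuronal sum (113 TPM).

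Likeness of pattern over the 6 libraries was described by Pearson's r of log2(TPM + 1), with no test, since many genes reach a high r over so few libraries. Among the 4 genes, Wt1 and Synpo were most alike (r = 0.874), both with control 1 lowest, and Podxl and Ptpro were most opposed (r = -0.785). Wt1 and Podxl, which were alike in level, had r = 0.579. Within the other lists, Wt1 and Synpo shared their closest genes, Cdh1 (r = 0.855 and 0.779) and Cspg4 (0.753 and 0.791). Podxl was closest to Nid2 (r = 0.902) and Cd2ap (0.878), and Ptpro to the germ cell gene Dazl (0.951) and to Nck2 (0.946). Dazl was at 5.65, 1.58 and 1.40 TPM in the controls and 9.31, 5.86 and 1.41 TPM in the knockouts, so knockout 1 was the highest library for it as for Ptpro. Among 9770 other genes of at least 10 TPM, the closest to Wt1 were Cep164 (0.985) and Tacc2 (0.983), those to Podxl D16Ertd472e (0.998) and Cct4 (0.992), and those to Synpo Arid3a (0.998) and Fdps (0.990). Pold1 (0.990) and Abhd17a (0.982) were closest to Ptpro. An r of at least 0.95 was reached by 17 genes with Wt1, 92 with Podxl, 33 with Synpo and 15 with Ptpro. Among the 4 genes, Podxl thus had the most genes of like pattern, and it also had the largest spread relative to genes of its own level.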

How the data were processed

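Poly(A) RNA of 6 mesonephroi (3 control, 3 knockout, grouped by title) was sequenced as paired reads, per the labels' protocols. The authors deposited 1 TPM value per gene and library, each column with the same sum, and a log2 fold change with p-value and adjusted p-value, per the file headers. For the authors' own processing, GRCm39 and DESeq2 are named per the submitters' processing notes. Aligner, counter, strand setting and annotation: not given in the sources used here. No genome of that build was used, so no positions or sequences are given.

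The 17577 of 20033 genes that reached 1 TPM in 3 or more libraries were tested on log2(TPM + 1) with limma (version 3.58.1, under R 4.3.3), using a trend of variance on mean and genotype as the only term; p-values were adjusted by Benjamini and Hochberg over all of them, with a threshold of 0.05. A difference on this scale understates the change of low genes. TPM keeps no depth, but the values of 20030 genes fell on whole reads within 0.02 reads; the reads are lower bounds, since a divisor that all 6 values of a gene share cannot be seen. In a check on 1000 genes, all deposited values (100%) gave whole reads, and 0% did once randomly changed. Libraries of a group differed by at least 7.27 in chi-square per degree of freedom, so none repeats another. The fit was tested on simulated data. Alternatives were 2 scalings, no filter, a pseudocount of 0.1, limma-voom on the reads, a replicate block, and leaving out each library.

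The genes and lists were chosen with earlier results of these data known. A few further genes of these lists are not reported here and do not enter the list counts. Named were the 5 genes, list members past the test or else the 2 of highest level, and the closest genes by r. Wt1os, Cd2ap, Fat1, Ezr, Nherf1, Nherf2, Synpo2, the forkhead genes, Osr1, Sall1, Dach1, Hey1, Cdkn1c, Nes, Myo1e, Thsd7a, Trpc6, Plce1, Krt19, Foxd1, Des, Amhr2, Cbx2, Sox9, Fgf9, the laminin and other collagen genes, Npnt, Kirrel2, Clic5, Lmx1b and Dazl's values were singled out after being seen. Upk3b and Th were also singled out in that way.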

Additional observations from a re-analysis of the deposited data

How the results depend on the processing

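None of the 4 genes passed the test under any of the 12 alternatives. The sign of Podxl turned under median-of-ratios scaling (0.0023) and limma-voom (0.012). Leaving out 1 library gave log2 differences from -0.012 to 0.076 for Wt1, -0.13 to 0.086 for Podxl, 0.11 to 0.27 for Synpo and -0.027 to 0.39 for Ptpro; for Vegfa they ran from -0.012 to 0.055, for Plvap from -0.17 to 0.12 and for Stmn2 from -0.047 to 0.16. The cause was not tested. The count over all genes was 78, 284 by limma-voom, and 13 to 243 without 1 library. Of 8 list genes past the test, 5 kept their call under either scaling, 7 without a filter, 6 with a pseudocount of 0.1 and 8 by limma-voom. With a replicate block for equal mouse numbers, 17 genes passed and 2 of those 8; in this balanced design the block cannot move the log2 differences, which were 0.045 for Wt1, -0.0066 for Podxl, 0.21 for Synpo and 0.15 for Ptpro. Same-numbered mice did not deviate together (correlations -0.064, 0.050 and -0.051), so the numbers are not taken as pairs. With 3 embryos a group, the interval of Ptpro allows a large change in either direction.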

Other observations

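Relatives of the podocyte genes are given as values, chosen after the data were seen and with no test of the family. Podxl2, which encodes endoglycan of the podocalyxin family, was at 24.5, 27.8 and 29.0 TPM in the controls and 29.3, 27.2 and 20.5 TPM in the knockouts, and Cd34, the third member of that family, at 30.6, 28.9 and 33.6 TPM and 29.3, 29.1 and 32.8 TPM. Podxl was thus the most abundant of the family in every library. Of the receptor phosphatases related to Ptpro, Ptprj was at 15.5, 17.4 and 17.4 TPM in the controls and 16.3, 15.0 and 17.3 TPM in the knockouts, and the endothelial Ptprb at 4.69, 4.92 and 4.99 TPM and 4.10, 3.76 and 5.01 TPM. Both were above Ptpro in all 6 libraries. Synpo2l, a relative of Synpo known from muscle, was at 0.222, 0.471 and 0.538 TPM in the controls and 0.728, 0.360 and 1.57 TPM in the knockouts, and Synpo was above it and above Synpo2 in all libraries.

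Slc34a1, the sodium-phosphate transporter of proximal tubules downstream of the glomerulus, lay under the filter used here, so limma was not run on it. Control 3 and all the knockouts were under 1 TPM. It was at 3.34, 1.24 and 0.906 TPM in the controls and 0.0930, 0.102 and 0.204 TPM in the knockouts. Every control value was above every knockout value, and the authors' deposited table, which does test it, lists -3.81 as log2 fold change and 4.74e-07 as adjusted p.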
